A study of Gallus gallus with 21 samples.

Results

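The last days of incubation were examined in the cerebrum of female Tibetan chickens by comparing embryonic day 20 (E20, shortly before hatching) with embryonic day 16 (E16). The members of this comparison are the libraries whose labels carry E16 or E20, which were 5 of the 21 libraries of the series: 3 at E16 and 2 at E20. Each library was made from the cerebrum of 1 embryo of an untreated, incubated egg, embryos were sexed by PCR of a gene with copies on the Z and W chromosomes, and E20 has a library fewer because only 2 female embryos were obtained there. The incubator was set to a slightly lower temperature from the day of E20 onwards, so age and incubator setting cannot be told apart. RNA depleted of ribosomal RNA was sequenced, and levels are given as log2(FPKM+1). FPKM, a fragment count scaled by transcript length and by the mapped reads of its library, is comparable between transcripts on a per-length basis.

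In the chick cerebrum, most neurons of the pallium have been generated by this part of incubation. The days before hatching are known for the growth of axons and dendrites, the formation of synapses, the multiplication of glia and the onset of myelination, and for the preparation of the embryo for breathing and feeding. An mRNA level in bulk tissue reflects both how many cells of a type there are and how much RNA each holds, and fewer cells of a type and less RNA per cell cannot be told apart. Long non-coding RNAs (lncRNAs) are transcripts without a recognised protein product, and many of them are present at low level and in few cell types or stages.

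The mRNAs are listed by Ensembl identifiers with a chromosome, and 0 of the 14558 identifiers could be paired with a gene symbol here, so the functions of the mRNAs that changed, and the markers by which a dissection of the cerebrum could be checked, were not analysed here. The lncRNAs carry the identifiers of the study without a position. Female birds carry a W chromosome. Without a library of a male to compare with, its mRNAs could not test the female label, and their levels are given as a description. Of the 37 mRNAs assigned to the W chromosome, 32 were above 0 in all 5 libraries, and their median level lay between 2.31 and 3.08 in each library.

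The libraries of a stage were not evenly alike, which bears on every count given for the comparison. Across the 14558 mRNAs, E16 replicates 1 and 2 had a Pearson's r of 0.988 with each other, but only 0.918 and 0.922 with E16 replicate 3. The 2 libraries of E20 had an r of 0.937. E20 replicate 2 had an r of 0.931 and 0.928 with E16 replicates 1 and 2, so it was closer to them than E16 replicate 3 was, whereas E20 replicate 1 had an r of 0.887 and 0.885 with the same libraries. E16 replicate 3 stood apart in other ways as well. Its r with the libraries of embryonic day 12 (E12) was 0.936, 0.940 and 0.940, above its r with E16 replicates 1 and 2. These had an r between 0.917 and 0.932 with the libraries of E12. The r of E16 replicate 3 with D100 replicate 1, a library of a bird aged 100 days, was 0.914, while that of E16 replicates 1 and 2 was 0.853 and 0.852. Rows of the mitochondrial genome made up 1.66% of the summed FPKM of E16 replicate 3. They made up 0.783% and 0.807% in the other libraries of E16 and 0.427% and 0.463% at E20.

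**Figure D1:**
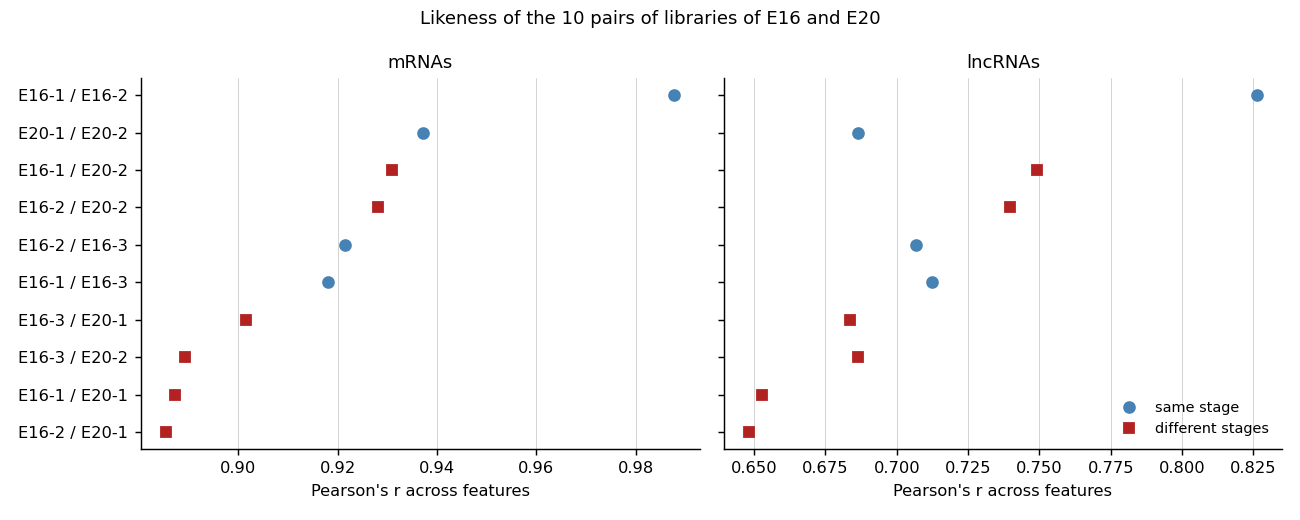
Pearson's r of the 10 pairs of libraries of E16 and E20, across the mRNAs (left) and the lncRNAs tested (right), in log2(FPKM+1); circles are pairs of the same stage and squares pairs of different stages, and the axes do not start at 0. E16 replicates 1 and 2 are the closest pair in both panels, at 0.988 and 0.826, and the pairs of E20 replicate 2 with E16 replicates 1 and 2 lie above the pairs within E16 that hold replicate 3.

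Across the lncRNAs tested, r was lower and E16 replicates 1 and 2 were again the closest pair. They had an r of 0.826, E16 replicate 3 had 0.713 and 0.707 with them, and the 2 libraries of E20 had 0.686. Unlike across the mRNAs, E20 replicate 2 was closer to E16 replicates 1 and 2 (r of 0.749 and 0.740) than to E20 replicate 1.

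The median mRNA differed by 0.39 between the stage means, in either direction. This was smaller than the median range over the 3 libraries of E16 (0.50) and slightly larger than the median difference between the 2 libraries of E20 (0.34). A difference of at least 1 between the stage means, a 2-fold change on this scale, was seen in 1712 mRNAs, 690 of them higher and 1022 lower at E20. Of these, 1343 differed by more than both the range of E16 and the difference between the libraries of E20. With 3 against 2 libraries, an exact permutation test of a single mRNA has 10 arrangements and cannot go below a two-sided p of 0.2. The tests given are therefore those of limma over 18 libraries of 7 stages, in which the spread between birds is estimated jointly. The stage D300 was not analysed here.

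Stage against stage, more mRNAs fell than rose. With a Bonferroni-adjusted p of at most 0.05 and at least a 2-fold change (the strict rule), 35 mRNAs were higher at E20 and 54 were lower, which were 0.24% and 0.371% of the 14558 mRNAs tested. With a Benjamini-Hochberg-adjusted p in place of the Bonferroni-adjusted one (the wider rule), 422 rose and 775 fell, which were 2.9% and 5.32%. The libraries of the stages did not overlap in 2646 mRNAs with E20 above E16 (18.2%) and in 3738 with E20 below (25.7%), and the gap between the stages reached 1 in 381 of these. With arbitrary stage labels and no ties, a share of 0.2 would be without overlap, both directions counted. A lack of overlap alone is therefore no call. All 89 mRNAs of the strict rule were among those without overlap, and so were 418 of the 422 and 762 of the 775 of the wider rule. The difference and the overlap are taken from the same libraries of E16 and E20, so this is a description and no separate support for the calls.

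These counts depended on single libraries. Without E16 replicate 3 the strict rule gave 38 rises and 87 falls, and the wider rule 547 and 866. A library outside the comparison also counted: without D100 replicate 3 the strict rule gave 41 rises and 80 falls, and the wider rule 487 and 845. The strict count fell from 89 to 31 without E16 replicate 1, to 29 without E16 replicate 2, to 16 without E20 replicate 1 and to 34 without E20 replicate 2, and the wider count fell from 1197 to 437 without E20 replicate 1. When an E20 library was left out, the remaining one had no partner and was assumed to vary as birds of the other stages do. The balance of rises and falls also moved with scaling. When libraries were brought to a common median ratio, the wider rule gave 546 rises and 640 falls and the strict rule 44 and 50, and the median difference over all mRNAs went from -0.07 to -0.0019.

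A single transcript held a large part of the summed FPKM in every library of E16 and E20. One mRNA row of chromosome 3 took up 29.5%, 29.4% and 27.8% of the summed FPKM in the libraries of E16 and 40.6% and 34.9% at E20. Its level was 17.59, 17.59 and 17.46 at E16 and 18.33 and 17.91 at E20. The libraries of the stages did not overlap for it, and the difference was 0.57 with a standard error of 2.22 (Bonferroni-adjusted p = 1). This standard error was far above the spread of its levels at E16 and at E20. The variance behind it also draws on other stages and on rows of like level. The test therefore does not decide whether this row changed. The summed FPKM of the mRNAs was not a fixed total, at 666456, 673172 and 649274 at E16 and 811815 and 706601 at E20. Whether this transcript had a part in the lower levels of other mRNAs at E20 was not tested.

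**Figure D2:**
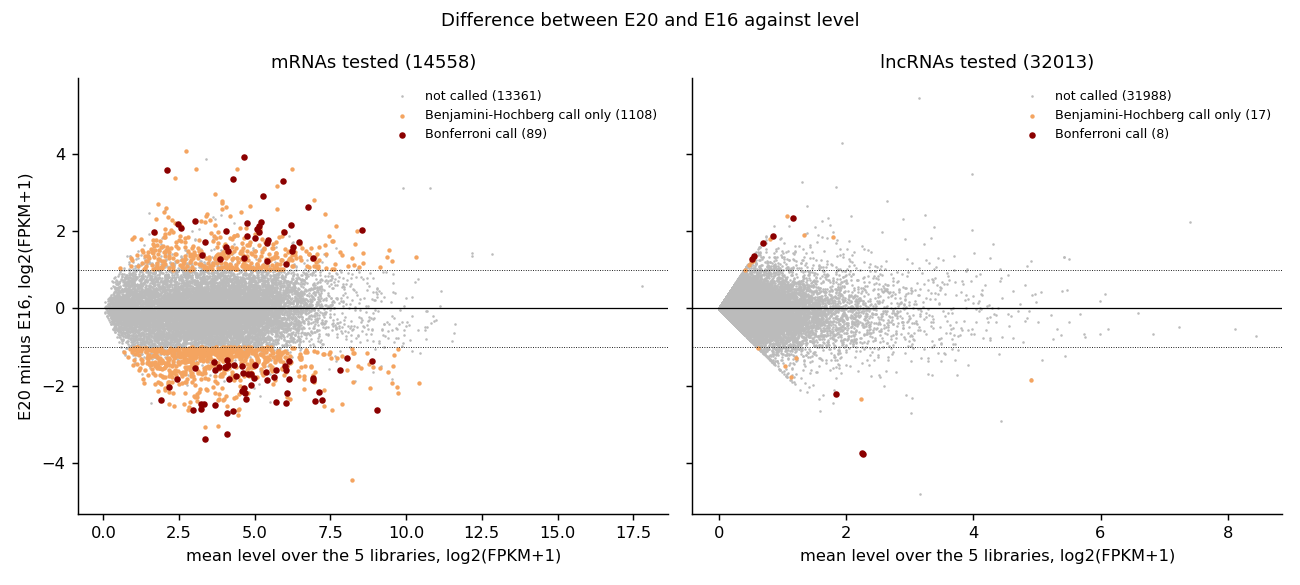
Difference between E20 and E16 in log2(FPKM+1) against the mean level over the 5 libraries, for 14558 mRNAs (left) and 32013 lncRNAs (right); each point is a feature, dotted lines mark a 2-fold change, and colours mark calls by the Bonferroni rule (89 mRNAs, 8 lncRNAs) and calls by the Benjamini-Hochberg rule alone. Calls of mRNAs are rare below a level of 1, where the scale leaves little room for a 2-fold change, and calls of lncRNAs are few.

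The mRNAs that rose by the strict rule had a median level of 4.26 at E16 and 6.32 at E20. Their differences ranged from 1.14 to 3.93 with a median of 1.98, 16 of the 35 changed by at least 4-fold and 4 by at least 8-fold on this scale. The medians over these mRNAs were 6.27 and 6.26 in the libraries of E20 and 4.03, 4.02 and 4.38 in those of E16. In 20 of the 35, the library of E16 nearest to E20 was replicate 3. The summed FPKM of the 35 mRNAs was 908, 892 and 1076 in the libraries of E16 and 4143 and 3732 in those of E20.

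The mRNAs that fell by the strict rule were at a higher level at the start, with a median of 5.47 at E16 and 3.51 at E20. Their differences ranged from -3.39 to -1.29 with a median of -1.82, and 22 of the 54 changed by at least 4-fold and 2 by at least 8-fold. At E16 the medians of the 3 libraries were 5.44, 5.48 and 5.49. At E20 they were 3.34 and 3.78, and in 45 of the 54 mRNAs the library of E20 nearest to E16 was replicate 2. The summed FPKM of these mRNAs was 5744, 5907 and 5765 at E16 and 1311 and 1753 at E20.

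Calls in both directions were few at the lowest levels. Below a mean level of 1 over the 5 libraries, 5 of 1316 mRNAs rose and 6 fell by the wider rule, and 0 passed the strict rule in either direction. Between 1 and 3, 2.74% rose and 5.82% fell, and between 3 and 5 the shares were 2.58% and 5.78%. Between 5 and 7 they were 4.48% and 5.31%, and among the 450 mRNAs at a level of 7 and above 7.56% and 8.67%. The difference between levels was not tested. Below a level of 1, log2(FPKM+1) leaves little room for a difference of 1, so few calls there are partly set by the scale.

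The largest rise among mRNAs called by the strict rule was that of ENSGALG00000005896 on chromosome 15. Its level was 3.39, 3.13 and 2.73 in the libraries of E16 and 7.31 and 6.71 in those of E20. Every library of E20 was above every library of E16 by at least 3.32. The stage means were 3.08 ± 0.33 (SD, n = 3) and 7.01 ± 0.43 (SD, n = 2), and the difference was 3.93 with a standard error of 0.52 (Bonferroni-adjusted p = 0.0203). In FPKM its mean went from 7.62 to 131, or 17.2-fold. The adjusted p rose to between 0.0690 and 1 when any one of the 5 libraries was left out, with differences between 3.63 and 4.23. Its mean was 4.32 at E12, 6.74 at D100 and 7.15, 6.58 and 5.85 in hens aged 1, 3 and 5 years (Y1, Y3 and Y5), so E16 was the lowest of the 7 stages analysed.

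The next largest rise was that of ENSGALG00000025804 on chromosome 9, from near the lower end of the scale. It was at 0.70, 0.68 and 0.65 at E16 and at 3.99 and 4.55 at E20. The libraries of E16 lay within 0.05 of each other and the gap between the stages was 3.29. The difference was 3.59 with a standard error of 0.40 (Bonferroni-adjusted p = 0.00220), and the mean FPKM rose from 0.597 to 18.6, or 31.2-fold. Without E20 replicate 2 the difference was 3.31 and the adjusted p was 0.162. E20 was the highest of the 7 stages: the mean was 0.31 at E12, 1.69 at D100, and 3.60, 2.13 and 2.27 at the 3 adult stages, with 0.54 in D100 replicate 1 and 2.14 and 2.41 in the other libraries of D100.

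The largest fall by the strict rule was that of ENSGALG00000006725 on chromosome 10. It was at 4.77, 4.89 and 4.43 at E16 and at 1.54 and 1.08 at E20. The lowest library of E16 was 2.89 above the highest of E20. The means were 4.70 ± 0.24 (SD, n = 3) and 1.31 ± 0.32 (SD, n = 2), the difference was -3.39 with a standard error of 0.24 (Bonferroni-adjusted p = 4.69e-06), and the mean FPKM went from 25.2 to 1.51, or 16.6-fold lower. The call was kept without each of the 5 libraries in turn, with an adjusted p of at most 0.000462. The level was 4.88 at E12, as high as at E16, and it was low in all birds after hatching, with means of 0.83, 1.96, 1.08 and 0.70 at D100, Y1, Y3 and Y5.

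The next largest fall was that of ENSGALG00000003922 on chromosome 27, in which the libraries of E16 were not alike. It was at 5.98, 6.02 and 4.17 at E16 and at 1.70 and 2.54 at E20. E16 replicate 3 was 1.82 below the lower of the other libraries of E16, and was still 1.62 above E20 replicate 2. The difference was -3.27 with a standard error of 0.45 (Bonferroni-adjusted p = 0.0301). Without E16 replicate 3 it was -3.88 with an adjusted p of 5.78e-05. The call was lost without E16 replicate 1 (adjusted p = 0.225), E16 replicate 2 (0.213), E20 replicate 1 (1) and E20 replicate 2 (0.132). Its mean was 4.20 at E12, near that of E16 replicate 3, and between 0.57 and 1.03 at D100 and later stages.

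**Figure D3:**
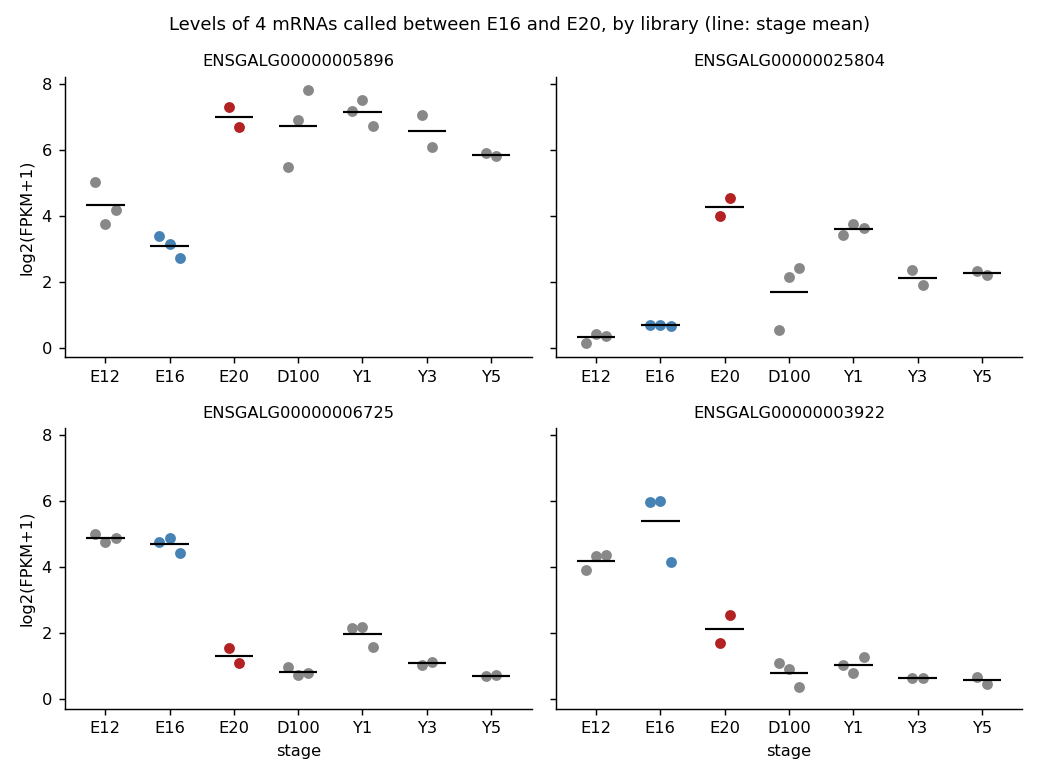
Levels in log2(FPKM+1) of the 2 largest rises (upper panels) and the 2 largest falls (lower panels) among mRNAs called by the strict rule, in each of 18 libraries by stage; points are libraries, lines are stage means, E16 is blue and E20 red. The libraries of E16 and E20 do not overlap in any panel, which was a condition for being shown, and ENSGALG00000003922 shows the low E16 replicate 3 at 4.17.

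The 12 largest rises of the strict rule, with those named above among them, lay on 10 chromosomes. Their differences were between 2.13 and 3.93 and their E16 means between 0.68 and 5.72. On the FPKM scale the 12 rose between 4.53-fold and 31.2-fold, with a median of 6.09-fold. The third of them, on chromosome 3, was at 2.88, 2.79 and 3.18 at E16 and at 7.30 and 5.32 at E20, so that the libraries of E20 differed by 1.98. In the fourth, on chromosome 1, E16 replicate 3 was nearer to E20 than the other libraries of E16: the levels were 4.07, 4.21 and 5.51 at E16 and 8.26 and 7.55 at E20. The eleventh, on chromosome 6, showed little spread at either stage, with 5.47, 5.19 and 5.37 at E16 and 7.61 and 7.38 at E20 (difference 2.15, standard error 0.22, Bonferroni-adjusted p = 0.000716).

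The 12 largest falls lay on 9 chromosomes, 3 of them on chromosome 4, with differences between -3.39 and -2.43 and FPKM between 5.59-fold and 16.6-fold lower at E20. In the falls ranked 5, 7, 9 and 10, E16 replicate 3 was lower than the other libraries of E16 by more than 1, as for ENSGALG00000003922. The sixth, on chromosome 4, was the most abundant of them, at 10.21, 10.22 and 9.84 at E16 and at 6.98 and 7.95 at E20. In the eleventh and the twelfth, on chromosomes 1 and 4, the libraries of E16 were within 0.05 and 0.01 of each other. These levels were 7.01, 7.01 and 7.05 against 4.31 and 4.82, and 6.68, 6.67 and 6.67 against 4.11 and 4.39.

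The mRNAs that rose and those that fell were also followed at the other stages. These are levels of sets that were chosen by E16 and E20, and they are given without a test. For the 35 that rose, the median over the set was 3.89 at E12, 4.26 at E16 and 6.32 at E20, and then 5.87, 5.75, 5.50 and 5.85 at D100, Y1, Y3 and Y5. For the 54 that fell, it was 4.76 at E12, 5.47 at E16 and 3.51 at E20, and then 4.44, 4.29, 4.38 and 4.10. The median of all mRNAs lay between 3.37 and 3.54 at each stage. At each stage after hatching, the median of either set thus lay between its E16 and E20 values and nearer to that of E20. The 12 largest falls were an exception. Their median was 2.16 at E20 and lower afterwards, at 1.90, 1.78, 1.38 and 1.29 at D100, Y1, Y3 and Y5.

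By the wider rule the set medians after hatching were also nearer to E20 than to E16. For the rises they were 3.54 at E16, 5.02 at E20 and between 4.79 and 5.03 afterwards. For the 775 falls the medians were 4.28 at E16, 2.83 at E20 and between 3.19 and 3.33 afterwards. At E12 they were 3.59 for the rises and 3.84 for the falls.

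The mRNAs called lay on chromosomes of every size class, and their shares are given as a description. By the strict rule, the 35 rises were on 16 and the 54 falls on 25 of the 35 chromosome labels, with all unplaced scaffolds counted as 1 label. Chromosomes 1 to 5 held 14 rises and 19 falls among 5962 mRNAs (0.235% and 0.319%), chromosomes 6 to 10 held 10 and 10 among 2191 (0.456% and 0.456%), chromosomes 11 to 20 held 7 and 13 among 2877 (0.243% and 0.452%), and the small chromosomes 21 to 33 held 4 and 9 among 1645 (0.243% and 0.547%). Over all mRNAs the shares were 0.24% and 0.371%. Chromosome 4 had the most calls of a single chromosome, with 4 rises and 8 falls among 969 mRNAs (0.413% and 0.826%), and chromosome 9 had 5 rises among 392 (1.28%). The Z chromosome, the sex chromosome that these females carry once, had 0 strict calls among 640 mRNAs.

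By the wider rule, 2.83% of the mRNAs of chromosomes 1 to 5 rose and 5.28% fell, near the 2.9% and 5.32% of all mRNAs. The corresponding shares were 3.29% and 4.93% on chromosomes 6 to 10, 2.61% and 5.32% on chromosomes 11 to 20, and 3.95% and 6.81% on chromosomes 21 to 33. The Z chromosome had 16 rises and 35 falls, or 2.5% and 5.47%, and the W chromosome had 1 rise and 2 falls among 37 mRNAs. Of single chromosomes with at least 100 mRNAs, chromosome 27 had the largest share in either direction, with 12 rises and 20 falls among 215 mRNAs (5.58% and 9.3%). Chromosome 17 had the smallest share of rises, with 2 of 280 (0.714%), and chromosome 7 the smallest share of falls, with 16 of 458 (3.49%). Falls outnumbered rises on every one of these chromosomes except 7 and 15, on which they were equal, with 16 each and 18 each. The median difference was below 0 in every size class, from -0.09 on chromosomes 6 to 10 to -0.06 on chromosomes 11 to 20. Over all mRNAs it was -0.07, and -0.0019 with median-ratio scaling. With that scaling, rises and falls were 216 and 258 on chromosomes 1 to 5 and 85 and 90 on chromosomes 6 to 10. They were 103 and 130 on chromosomes 11 to 20, 80 and 93 on chromosomes 21 to 33, and 39 and 37 on unplaced scaffolds. The excess of falls thus depended in part on scaling.

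**Figure D4:**
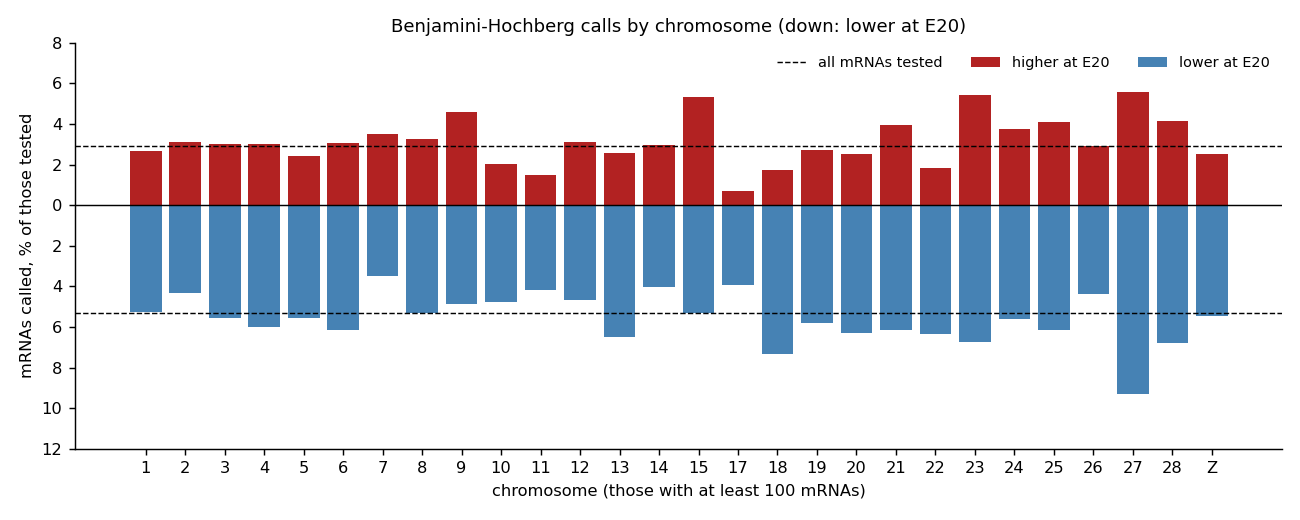
Share of the mRNAs of each chromosome called by the wider rule, in % of those tested, with rises drawn upwards and falls downwards; dashed lines are the shares over all mRNAs, 2.9% and 5.32%, and chromosomes with at least 100 mRNAs are shown. Most chromosomes lie near the dashed lines, and chromosome 27 has the longest bars, at 5.58% and 9.3%.

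The mitochondrial genome, which encodes subunits of the respiratory chain, is listed with 30 rows. Which of these rows are mRNAs was not determined here. Of the 30 rows, 56.7% had a lower mean at E20, compared with 53.4% to 64.9% in the other chromosome classes. By the wider rule 1 rose and 1 fell (3.33% and 3.33%), against 2.9% and 5.32% of all mRNAs. Of the 16 rows with a mean FPKM of at least 10, 13 had a lower mean at E20, with a median difference of -0.47. Of the 14 rows below that level 4 did, with a median difference of 0.31. This division by level is a description and was not tested. The row with the largest fall was at 9.29, 9.47 and 11.19 at E16 and at 6.77 and 4.32 at E20. Its difference of -4.44 was the largest fall of any row with an Ensembl identifier, but its standard error was 1.24. It passed the wider rule only (Benjamini-Hochberg-adjusted p = 0.0289, Bonferroni-adjusted p = 1). The row with the largest rise was at 6.60, 6.72 and 6.75 at E16 and at 8.76 and 8.36 at E20, a difference of 1.87 with a standard error of 0.32 (Benjamini-Hochberg-adjusted p = 0.00200, Bonferroni-adjusted p = 0.464).

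A library outside the comparison entered these standard errors. Mitochondrial rows made up 28.8% of the summed FPKM in D100 replicate 3, against 0.427% to 5.62% in the other 17 libraries. Without D100 replicate 3, 1 of the 30 mitochondrial rows rose and 3 fell by the wider rule, and 0 passed the strict rule. Over all 14558 mRNAs, 487 rose and 845 fell by the wider rule in that fit. Whether the mitochondrial rows differed from this share was not tested. The standard error of the largest fall among them was 0.82 in that fit. Among the 5 libraries of E16 and E20, the summed level of these rows was highest in E16 replicate 3, with an FPKM of 10757 compared with 5220 and 5432 in the other libraries of E16 and 3463 and 3271 at E20.

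The number of lncRNAs with a value varied between libraries. Of 39907 lncRNAs in the table, 18260, 15929 and 18032 had a value in the libraries of E16 and 13480 and 16146 in those of E20. The numbers overlapped between the stages, since E20 replicate 2 had more than E16 replicate 2. E20 replicate 1 had the fewest values and also the fewest mRNAs above 0, with 230 mRNAs at 0 compared with 80 to 173 in the other libraries of E16 and E20. By the read totals that the study lists it was not the shallowest of them.

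A value in all 5 libraries was seen for 7546 lncRNAs (18.9%), and none of the 5 had one for 11630 (29.1%). A value in all 3 libraries of E16 and in neither of E20 was seen for 763 lncRNAs, at a median level of 0.38 over the libraries with a value, and in both of E20 and in none of E16 for 303, at a median of 0.45. Most of these were at low level: 43 of the 763 and 30 of the 303 reached a mean of 1. Of the 763, 695 had a value at E12, and 19 had none at any other stage analysed. Of the 303, 181 had a value at E12 and 30 had none at any other stage analysed.

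Tests were made for the 32013 lncRNAs that had values in at least 2 of the 18 libraries. By the strict rule 5 rose and 3 fell, which were 0.0156% and 0.00937% of those tested, and by the wider rule 16 rose and 9 fell (0.05% and 0.0281%). The libraries did not overlap for 1663 lncRNAs with E20 above E16 (5.19%) and for 2591 with E20 below (8.09%), and the gap reached 1 in 94 of these. Among the 7546 lncRNAs with a value in all 5 libraries, 10.1% were higher and 16% lower at E20 without overlap, and 2 rose and 5 fell by the wider rule. With arbitrary stage labels and no ties, the share without overlap would be 0.2, both directions counted. The balance turned with single libraries. Without E16 replicate 3 the strict rule gave 2 rises and 15 falls and the wider rule 28 and 84, and without E20 replicate 1 the libraries did not overlap for 6095 lncRNAs with E20 above and 4029 with E20 below. The strict count of 8 moved to 4 without E16 replicate 1, to 3 without E16 replicate 2 and to 17 without E16 replicate 3. It moved to 5 without D100 replicate 3, and to 55 and 88 without E20 replicate 1 and 2, when a single library was left to stand for the stage. In a fit of the libraries of E16 and E20 alone, 0 lncRNAs and 0 mRNAs passed the strict rule by limma. With an unadjusted p of at most 0.05, 351 of 32013 lncRNAs and 1492 of 14558 mRNAs had a 2-fold change. At any fold, 1283 lncRNAs and 3588 mRNAs had such a p in limma. For the lncRNAs this is below a share of 0.05, which such a p allows without any change, so the 351 are no calls.

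The largest rise among lncRNAs of the strict rule was that of TU8150. It was at 0.18, 0.12 and 0.39 at E16 and at 2.75 and 2.37 at E20. Both libraries of E20 were above those of E16 by at least 1.98, and the difference was 2.33 with a standard error of 0.31 (Bonferroni-adjusted p = 0.0434). The mean FPKM went from 0.176 to 4.94, or 28.1-fold. It had a value in 17 of the 18 libraries, with a mean of 0.41 at E12. It stayed high after hatching, with means of 2.43, 2.65, 2.42 and 3.29 at D100, Y1, Y3 and Y5 and no library below 2.26. The adjusted p was between 0.143 and 1 when any one of the 5 libraries was left out.

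The next largest rise, that of TU159121, was of another kind. It was at 0, 0.28 and 0 at E16 and at 1.52 and 2.41 at E20, and apart from these it had a value only in 1 library of Y3, at 0.40. The difference was 1.87 with a standard error of 0.24 (Bonferroni-adjusted p = 0.0263), and the mean FPKM was 0.0712 at E16 and 3.08 at E20. The SD at E20 was 0.62 (n = 2). The standard error rests largely on libraries taken as 0, so it and the p say little about the spread between birds that express it. With missing values left out, 1 library of E16 remained and the difference was 1.68. The call was lost without E16 replicate 1 (adjusted p = 0.278), replicate 2 (0.0832) or replicate 3 (0.242). The 3 other lncRNAs that rose resembled it in level: they were at 1.44 and 1.12, at 1.58 and 1.12, and at 1.91 and 1.51 in the libraries of E20. At E16, 2 of them had no value and the last was at 0.05, 0 and 0. One of them had a value in the 2 libraries of E20 and in no other of the 18, and another in these and in 1 library of Y1 only, at 0.40. For these 2 as well, the standard errors rest largely on libraries taken as 0.

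TU81525 showed the largest fall among lncRNAs of the strict rule. It was at 3.26, 3.49 and 4.57 at E16, and at E20 it was without a value in replicate 1 and at 0.00223 in replicate 2. The difference was -3.77 with a standard error of 0.47 (Bonferroni-adjusted p = 0.0232), and the adjusted p lay between 0.0518 and 1 when any one of the 5 libraries was left out. It had values again after hatching. The mean was 2.42 at E12, 3.74 at D100 and 3.64 at Y1, with every library of D100 and Y1 at 3.19 or above, but none of the libraries of Y3 and Y5 had one.

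TU79858 fell from 2.77, 2.80 and 2.59 at E16 to 0.43 and 0.59 at E20. Both stages were narrow, with an SD of 0.11 (n = 3) and 0.11 (n = 2), and the gap was 2.01. The difference was -2.21 with a standard error of 0.26 (Bonferroni-adjusted p = 0.00831), and the mean FPKM went from 5.61 to 0.424, or 13.2-fold lower. The call held without E16 replicate 3 (adjusted p = 0.0311) and was lost without E16 replicate 1 (0.0653), E16 replicate 2 (0.0700), E20 replicate 1 (0.342) and E20 replicate 2 (0.159). The level stayed low after hatching, with means of 0.54, 0.15, 0.02 and 0 at D100, Y1, Y3 and Y5, and it was between 1.96 and 2.26 in the libraries of E12. The other lncRNA that fell, by almost as much as TU81525, was at 3.36, 3.63 and 4.24 at E16. It had no value in either library of E20, which was taken as 0 (difference -3.74, standard error 0.25, Bonferroni-adjusted p = 4.53e-06). Its only other value was 0.45 in D100 replicate 1. Its standard error and p rest largely on libraries taken as 0, so they say little about the spread between birds. With missing values left out, lncRNAs without any value at E16 or without any at E20 were not tested. These included this lncRNA and the 2 strict rises without a value at E16. Of the 8 strict calls of lncRNAs, 1 was kept in that fit, that of TU8150.

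**Figure D5:**
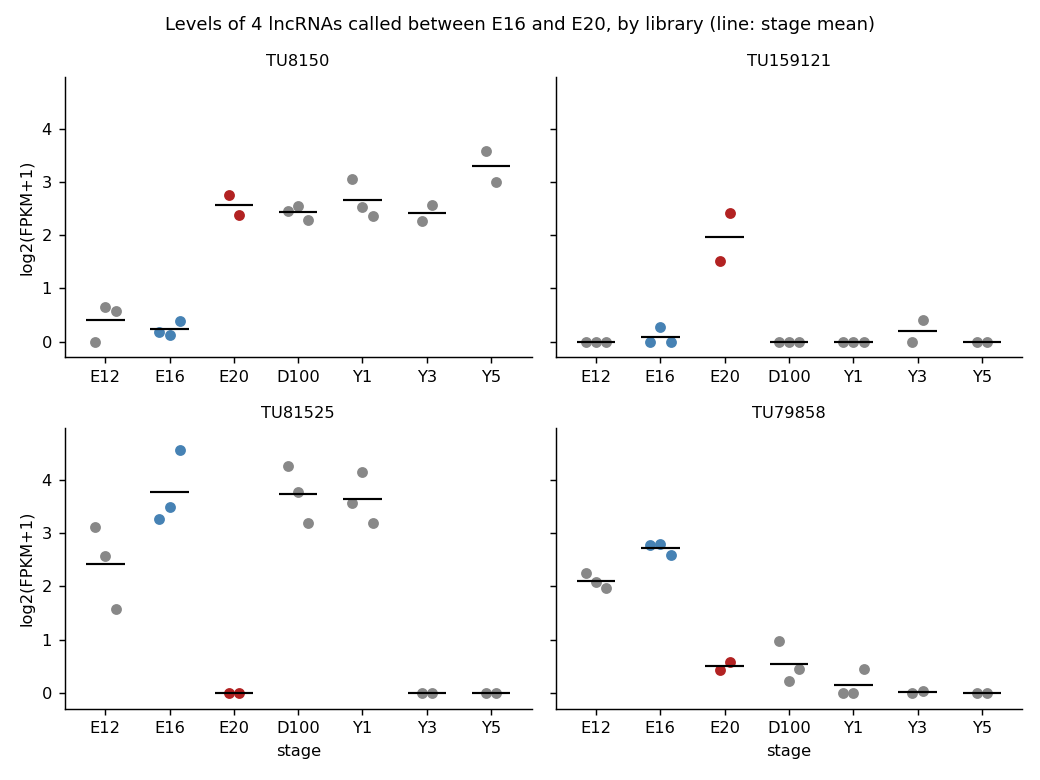
Levels in log2(FPKM+1) of the 2 largest rises (upper panels) and the 2 largest falls (lower panels) among lncRNAs called by the strict rule and above 0 at both stages, in each of 18 libraries by stage; points are libraries, lines are stage means, and a lncRNA without a value is drawn at 0. TU8150 is at 2.26 or above in every library from E20 onwards, TU159121 is above 1 at E20 alone, and TU81525 is near 0 at E20 and again at Y3 and Y5.

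For some lncRNAs qPCR primers are known, by which these transcripts can be identified although they have no position here. They are the lncRNAs that were picked for qPCR as examples of temporal patterns, and their levels in the sequencing libraries are given. The primer pairs of those with the largest rise and the largest fall between E16 and E20 are printed 5′ to 3′, in lower case throughout, from the supplement of the study.
TU167089 forward: cgacagcctcattcgtccg
TU167089 reverse: cggatccgacaccttcctct
TU99158 forward: tggtcaaggcgtagagggta
TU99158 reverse: atggggtttgctggcatgta

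TU167089 was at 2.87, 3.30 and 3.27 at E16 and at 4.64 and 4.38 at E20, a gap of 1.08. The difference was 1.36 with a standard error of 0.72 (Benjamini-Hochberg-adjusted p = 0.766). It was at 1.80 at E12, and at 3.82, 4.20, 3.17 and 1.60 at D100, Y1, Y3 and Y5, so its highest mean was at E20. TU99158 was at 6.14, 5.99 and 4.76 at E16 and at 3.35 and 4.27 at E20, and E16 replicate 3 was the library nearest to E20. The difference was -1.82 with a standard error of 0.61 (Benjamini-Hochberg-adjusted p = 0.534), and the mean continued down to 2.93 at D100 and 1.21 at Y5.

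None of the 10 lncRNAs chosen for qPCR passed either rule. By the wider rule, 0.05% of all lncRNAs tested rose and 0.0281% fell. In no band of mean level did more than 0.452% rise or fall, so the lack of a call among 10 says little about them. Each of the 10 had a mean of at least 2.56 at E16, where the median over the lncRNAs tested was 0.17. Besides TU167089, 2 were higher at E20 without overlap: TU45029, with 2.80, 2.91 and 1.98 at E16 and 3.34 and 4.12 at E20, and TU178751, with 4.76, 4.40 and 4.17 at E16 and 4.87 and 4.92 at E20. Besides TU99158, 2 were lower at E20 without overlap. These were TU6367, with 5.96, 5.92 and 6.11 at E16 and 5.38 and 5.30 at E20, and TU166039, with 4.34, 3.90 and 4.61 at E16 and 3.64 and 3.57 at E20. The libraries of the stages overlapped in TU56811, TU26292, TU50759 and TU38242. TU56811 had the widest spread, with 4.01, 3.55 and 2.22 at E16 and 2.96 and 4.66 at E20. Among all lncRNAs tested, 5.19% were higher and 8.09% lower at E20 without overlap. When a minimum mean FPKM of 1 was set, 1126 of the 3889 lncRNAs left were without overlap, both directions counted. Whether the 10 differed from these shares was not tested.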

How the data were processed

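The authors deposited log2(FPKM+1) values of 14558 mRNAs and 39907 lncRNAs. According to their description, RNA was depleted of ribosomal RNA and sequenced as paired ends, reads were aligned to Gallus_gallus-5.0 with HISAT2, transcripts were assembled with StringTie 1.3.3, FPKM were computed with Cufflinks 2.2.1 and StringTie, 1 was added before the log2 transformation, and mRNAs were filtered on FPKM. The authors tested read counts with DESeq2. Read counts per feature were not used here, the read totals that the study lists entered no computation, and low values showed no steps of whole reads. The counting error of a value is therefore unknown, and precision rests on the number of libraries.

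E20 and E16 were compared with limma 3.58.1 (R 4.3.3) on log2(FPKM+1), fitting 7 stage means to 18 libraries with a moderated variance that follows the level. Differences are E20 minus E16, and they understate the change of weakly expressed features. The strict rule was a change of 2-fold or more in either direction with a Bonferroni-adjusted p of at most 0.05, and the wider rule took a Benjamini-Hochberg-adjusted p. A lncRNA without a value was taken as 0, which was the case for 59% of the values in the 5 libraries. Libraries of a stage come from separate birds. The columns of Y3 and Y5 were used without a replicate number, and 3 columns per table that carry no stage were not used. The fit was tested on simulated data. Other steps used Python 3.11.15, pandas 2.3.3, numpy 2.4.6 and matplotlib 3.10.9.

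The members, lists and rules were chosen with earlier results of these data known. The rule for named features was the 12 largest rises and 12 largest falls of the strict rule without overlap and above 0 at both stages, all called lncRNAs, and the features of the study's qPCR. Since 0 identifiers matched a symbol in the RefSeq table of GRCg7b, gene lists and cell type markers could not be applied, and identifiers are printed for only 2 rises and 2 falls per class and for the 10 qPCR lncRNAs. The others are described by their values.

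Alternatives were other corrections of p, a minimum mean FPKM of 1, no filter, missing values left out, a pseudocount of 0.1, median-ratio scaling, other sets of libraries, a replicate block, a constant prior variance, a minimum gap of 1, and leaving out single libraries.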

Additional observations from a re-analysis of the deposited data

How the results depend on the processing

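The count of 89 mRNAs by the strict rule stayed within 1.5 times with a minimum mean FPKM of 1, a pseudocount of 0.1, median-ratio scaling and a constant prior variance. It was 13 (7 rises and 6 falls) in a fit of the 3 embryonic stages and 0 in a fit of E16 and E20 alone, where fewer libraries estimate the spread, and 1197 and 1570 with a Benjamini-Hochberg-adjusted and an unadjusted p. The wider count of 1197 mRNAs was 186 in the fit of E16 and E20 alone. The strict count of 8 lncRNAs was 0 in the fit of E16 and E20 and 0 in that of the embryonic stages. By an unadjusted p and fold in limma, 351 and 403 of 32013 lncRNAs passed in these fits. The strict count of lncRNAs was 4 with missing values left out. It was 25 with a Benjamini-Hochberg-adjusted and 501 with an unadjusted p. The wider count of 25 lncRNAs was 57 with a pseudocount of 0.1, 15 above the minimum FPKM, 0 and 5 in the fits of 2 and 3 stages, 40 with a constant prior variance and 14 with missing values left out. A gap of at least 1 left 381 of 6384 mRNAs and 94 of 4254 lncRNAs without overlap, and 1126 lncRNAs above the minimum FPKM did not overlap. Leaving out single libraries gave 16 to 125 mRNAs and 3 to 88 lncRNAs by the strict rule, 437 to 1413 and 20 to 247 by the wider rule, and 6942 to 10015 and 5977 to 10557 without overlap, where fewer libraries overlap less often by construction. The cause of the moves in the counts of calls was not tested.

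The labels tie the libraries of E16 and E20 to each other only by a replicate number, and with 2 libraries at E20, whose deviations from their mean mirror each other, correlations of deviations could not show a pairing. With the replicate block, 16 mRNAs and 1 lncRNA passed the strict rule and 7 lncRNAs passed the wider rule. The differences of the 8 called features named kept their sign in every alternative run. These features were chosen for libraries without overlap, so leaving out a library could not change the sign. Many of their strict calls were lost. Of 14 alternatives, the call was lost in 1 for ENSGALG00000006725, 2 for ENSGALG00000025804, and 9 each for ENSGALG00000005896 and ENSGALG00000003922, and of 16 in 9 for TU79858, 10 for TU8150 and 11 each for TU159121 and TU81525. With median-ratio scaling the Bonferroni-adjusted p of ENSGALG00000005896 was 0.0528, and with a pseudocount of 0.1 it was 0.264 for ENSGALG00000003922, 0.275 for TU8150, 0.738 for TU159121 and 1 for TU79858. Among the 10 qPCR lncRNAs, the sign changed for TU56811 alone, whose difference lay between -0.30 and 1.40.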
